A study of Camellia sinensis with 9 samples.

Results

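miR390 is a microRNA family of land plants, and its 5 rows among the 371 named rows of a tea plant small RNA table are described here across root, flower and leaf. The rows are all those with miR390 or MIR390 in the name, both hairpin arms included. They are csn-miR390b_5p, csn-miR390a_5p, csn-miR390b_3p, csn-miR390a_3p and csn-MIR390e-3p, written below without the species prefix. The rows miR390a_3p and MIR390e-3p had the same sequence and the same counts, so the 5 rows hold 4 of the 341 distinct sequences in the table, and their reads cannot be assigned to one of these names.

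The study sequenced small RNA from 3 organs of Camellia sinensis, the tea plant, whose leaves are used for tea. Each organ had 3 libraries, which the labels call root13, root23 and root33, then flower1, flower2 and flower45 for the flower, and leaf1, leaf23 and leaf41 for the leaf. All plants were untreated, and no genotype, cultivar, age or number of plants per library was used here. Total RNA was taken with TRIzol, a phenol-based reagent, and the libraries followed a standard Illumina protocol after ribosomal RNA was removed. Since nothing in the labels says that the 3 libraries of an organ came from separate plants, the p-values below measure the spread between these samples, which may be technical. The table lists microRNAs and no organ marker transcripts, so the organ labels were not checked against markers. In whole organs, fewer cells of a type and less RNA per cell cannot be told apart. The total count per library over all rows ran from 643051 in root13 to 1788497 in flower2. These totals count rows of the same sequence more than once. With each sequence once they ran from 369605 in root13 to 1073284 in flower2.

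In Arabidopsis and other flowering plants, miR390 acts through AGO7, an Argonaute protein that carries almost no other microRNA. The complex binds TAS3 transcripts, whose cleavage products are copied into double-stranded RNA and cut into trans-acting small interfering RNAs. Some of these, the tasiARFs, silence the auxin response factors ARF2, ARF3 and ARF4, and the pathway is known for its part in leaf polarity, the juvenile to adult change and lateral root growth. The 5p arm of the hairpin gives the guide strand and the 3p arm its partner, which in most hairpins is discarded.

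The 4 distinct sequences are shown because the arms and the near-copies below differ by very few bases. Capitals mark the seed, bases 2 to 8 counted from the 5′ end.
miR390b_5p: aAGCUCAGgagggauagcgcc
miR390a_5p: aAGCUCAGgagggauagcgccu
miR390b_3p: cGCUAUCUauccugaguuuca
miR390a_3p and MIR390e-3p: cGCUGUCCauccugaguuuca

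The 5p sequences share the seed AGCUCAG. The 22-base miR390a_5p is the 21-base miR390b_5p with 1 U added at the 3′ end, so these rows differ in length only. Both begin with A, a first base that 40 of 169 distinct 5p sequences of the table have (23.7%). In Arabidopsis, a 5′ A is one of the features by which AGO7 takes up miR390. A length of 21 bases was held by 48.1% of the 341 sequences and a length of 22 bases by 13.2%.

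The 3p sequences differ from each other by the substitutions A5G and U8C, with the base of miR390b_3p first and positions counted from the 5′ end. Both substitutions lie in the seed, which reads GCUAUCU in miR390b_3p and GCUGUCC in miR390a_3p. No row outside miR390 was within 3 mismatches of a miR390 sequence or had the same bases 2 to 8. Sequences were aligned at the 5′ end or shifted by a single base, and each base of length difference counted as a mismatch. More distant likeness was not searched.

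A predicted pairing of the arms, made with RNAduplex without the hairpin loop, placed miR390b_5p against miR390b_3p at -27.2 kcal/mol and against miR390a_3p at -29.1 kcal/mol. Each predicted duplex had 18 base pairs, of which 2 were G:U pairs, and 2 unpaired bases at each 3′ end, the shape that Dicer-like enzymes leave. The 1 unpaired position inside each duplex was base 11 of the 5p strand, a G opposite the A at base 9 of the 3p strand. A mismatch at the centre of the duplex is the other feature that AGO7 reads in Arabidopsis, and A5G and U8C left it in place. A5G exchanged a U:A pair for a U:G pair, and U8C exchanged a G:U pair for a G:C pair. These are predictions from the listed sequences alone, and the tea plant hairpins were not used here.

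As a share of the counts over all named rows, with each sequence counted once, miR390 made up 10.7% in flower1, 11.4% in flower2 and 10.5% in flower45. Reads outside the named microRNA rows are not part of these shares. In root the share was 0.428% in root13, 0.658% in root23 and 1.22% in root33. In leaf it was 0.0444% in leaf1, 0.0665% in leaf23 and 0.0745% in leaf41. In flower, about 1 count in 10 over the named rows was therefore miR390, and the libraries of the 3 organs did not overlap. The means were 10.9% ± 0.479 (SD, n = 3) in flower, 0.769% ± 0.408 in root and 0.0618% ± 0.0156 in leaf. These shares depend on no scaling between libraries, but a share falls where other sequences take more of the counts.

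The guide strand miR390b_5p held most of these reads in flower and root. Its raw counts were 78609, 80151 and 82280 in flower1, flower2 and flower45. They were 1288, 3621 and 4968 in root13, root23 and root33, and 124, 141 and 276 in leaf1, leaf23 and leaf41. The lowest flower library thus had more reads than the highest root library, and the lowest root library more than the highest leaf library. By rank among the 341 distinct sequences, miR390b_5p stood 3rd in flower1 and flower2 and 2nd in flower45, at ranks 14 to 26 in root and at ranks 44 to 50 in leaf.

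On the CPM scale, which gives counts per 1000000 of the TMM-scaled library total, miR390b_5p stood at 55271 in flower1, 39427 in flower2 and 42773 in flower45. It stood at 1385 in root13, 3009 in root23 and 4279.6 in root33, and at 298 in leaf1, 226 in leaf23 and 323 in leaf41. The organ means were 45824 ± 8351 CPM (SD, n = 3) for flower, 2891 ± 1451 for root and 282 ± 50.6 for leaf. Relative to the mean, the spread was widest in root, with a coefficient of variation of 50.2%, where root33 was the highest and root13 the lowest. In leaf it was 17.9%. In flower it was 18.2% in CPM and 3.41% when the counts were divided by the constants behind the authors' normalised score.

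**Figure D1:**
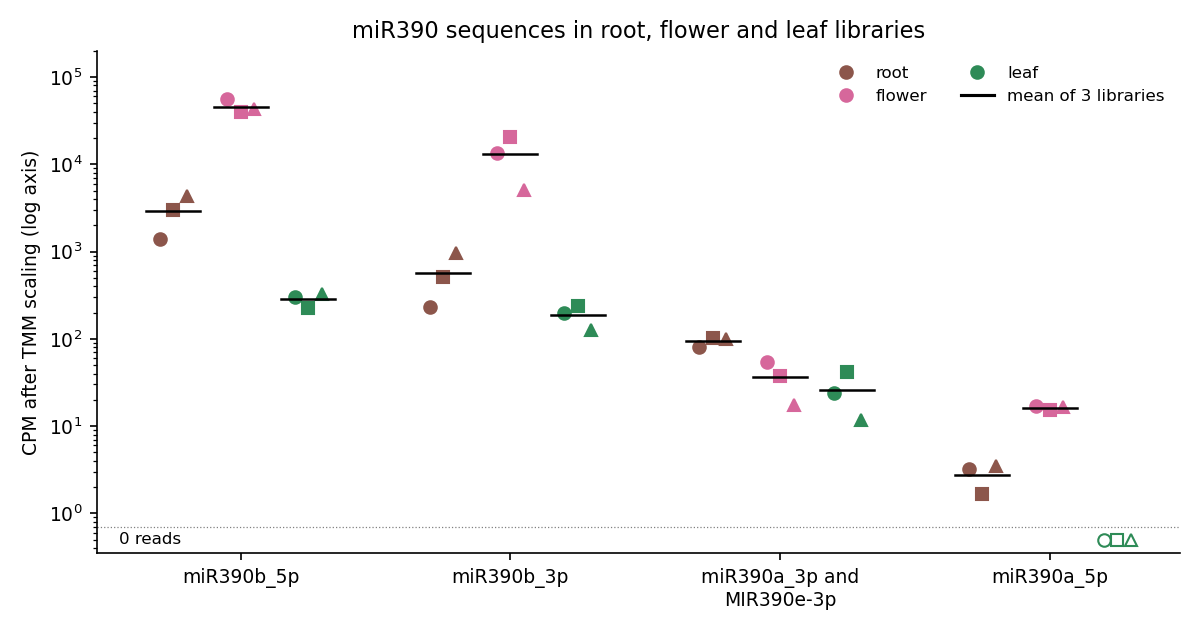
Level of the 4 distinct miR390 sequences in CPM after TMM scaling, on a log axis. Points are the 9 libraries, coloured by organ, and short lines are means of 3 libraries, with libraries at 0 drawn as open marks at the bottom. For miR390b_5p, flower (39427 to 55271) lies above root (1385 to 4279.6), and root above leaf (226 to 323). For miR390a_3p, root has the highest mean on this scale.

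Against leaf, miR390b_5p was 162.2-fold higher in flower (log2 fold change 7.34 ± 0.55 SE, adjusted p = 1.05e-06). All p-values adjusted over rows come from edgeR's quasi-likelihood test with Benjamini-Hochberg adjustment over the 155 rows tested. By fitted fold change this was the largest rise among the 129 distinct sequences tested. Against root, miR390b_5p was 15.8-fold higher in flower (log2 3.99 ± 0.47, adjusted p = 5.29e-05), which ranked 15th. Root stood 10.2-fold above leaf (log2 3.36 ± 0.46, adjusted p = 0.000225), which ranked 10th. The 3 comparisons share libraries pairwise, so they are not independent of each other.

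The direction and the call of miR390b_5p held under every alternative run, but the sizes moved. The TMM scaling factors over all 9 libraries ran from 0.51 in leaf1 to 1.45 in root13, and their part in this was not tested. Over 5 scalings, the log2 fold change ran from 7.34 to 8.84 for flower against leaf, from 3.91 to 4.65 for flower against root and from 3.36 to 4.30 for root against leaf. For root against leaf it was 5.08 without root13, 4.42 without root23 and 4.89 without leaf41. For flower against leaf it was 8.62 without leaf41, and 8.31, 8.44 and 8.32 without root13, root23 and root33, which enter that comparison through the scaling and the spread only. For flower against root it was 3.23 without root13.

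The counts of calls over the whole table give the background for these rows. Higher in flower than in leaf were 12.9% of the 155 rows and lower were 31%. Higher in flower than in root were 16.8% and lower were 27.7%. Higher in root than in leaf were 9.03% and lower were 23.2%. Of the 5 miR390 rows, 3 were called higher in flower than in leaf, 3 higher in flower than in root and 2 higher in root than in leaf, and 0 were called lower in any comparison. Each of these counts includes the rare miR390a_5p, which met the low-count filter through the flower libraries alone, and without it they are 2, 2 and 1.

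The balance of these calls depended on the scaling. For root against leaf, TMM called 14 rows higher and 36 lower, RLE size factors 31 and 35, library totals 38 and 24, the authors' divisor 30 and 19, and a table with each sequence once 28 and 17. For flower against leaf, TMM called 20 and 48, RLE size factors 28 and 33, library totals 26 and 38, the divisor 37 and 26, and the table of single sequences 22 and 25. For flower against root, TMM called 26 and 43, RLE size factors 44 and 40, library totals 26 and 41, the divisor 47 and 37, and the table of single sequences 24 and 31. With TMM, the median log2 fold change over all rows was -1.16 for flower against leaf, -0.34 for root against leaf and -0.07 for flower against root. Across the scalings the first of these moved from -1.16 to 0.49. The rises of miR390b_5p were larger than that shift.

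**Figure D2:**
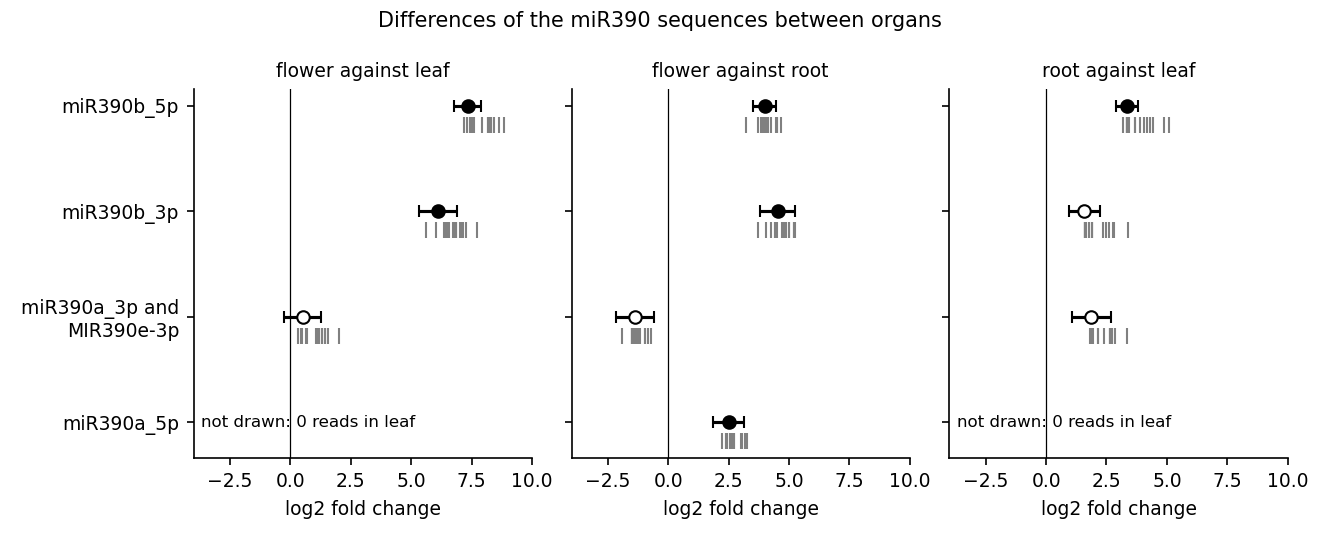
Log2 fold changes of the miR390 sequences in the 3 comparisons. Circles with bars are the TMM fit ± SE, filled where the adjusted p was under 0.05, and ticks are the 17 alternatives; the 2 comparisons of miR390a_5p with leaf are not drawn. miR390b_5p lies right of 0 at all ticks, and miR390a_3p left of 0 in flower against root.

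The partner strand miR390b_3p was also abundant in flower, with raw counts of 19309, 42087 and 9739 in flower1, flower2 and flower45. Root13, root23 and root33 had 216, 609 and 1124 counts, and leaf1, leaf23 and leaf41 had 83, 150 and 109. On the CPM scale it averaged 13114 ± 7830 (SD, n = 3) in flower, 569 ± 372 in root and 189 ± 56.9 in leaf. Flower2 was the highest and flower45 the lowest flower library, and every flower library was above all root and leaf libraries. In CPM, root13 at 232 lay below leaf23 at 240, so root and leaf overlapped. Divided by the authors' constants, root13 at 98.5 lay above leaf23 at 70.9, the highest leaf library, and they did not overlap.

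miR390b_3p was 69.4-fold higher in flower than in leaf (log2 6.12 ± 0.78, adjusted p = 9.10e-05) and 23.05-fold higher in flower than in root (log2 4.53 ± 0.72, adjusted p = 0.000472). Among the 129 sequences it ranked 3rd and 12th in these comparisons. For root against leaf the difference did not pass (log2 1.59 ± 0.64, adjusted p = 0.0722). That call depended on the setting, since root was called higher under the other 4 of 5 scalings, with log2 values up to 2.59. The log2 value for root against leaf was 3.40 without root13, 2.82 without root23 and 2.77 without leaf41, all past the threshold. For flower against leaf it was 7.12, 7.27 and 7.13 without root13, root23 and root33, 7.01 without leaf41 and 6.80 without flower45. For flower against root it was 3.72 without root13, 5.22 without root33 and 5.20 without flower45. All of these flower values passed.

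The other 3p sequence, listed as miR390a_3p and MIR390e-3p, had its highest mean in root and not in flower, a difference that did not pass the test. Its raw counts were 75, 123 and 115 in root13, root23 and root33, then 77, 77 and 34 in flower1, flower2 and flower45, and 10, 26 and 10 in leaf1, leaf23 and leaf41. In CPM it averaged 94.0 ± 11.6 (SD, n = 3) in root, 36.6 ± 18.3 in flower and 25.8 ± 15.0 in leaf. The root libraries, from 80.7 to 102 CPM, did not overlap flower, from 17.7 to 54.1, or leaf, from 11.7 to 41.6, while flower and leaf overlapped. Divided by the authors' constants instead, root13 at 34.2 lay below flower1 at 35.7 and flower2 at 36.1, so root and flower overlapped on that scale. None of these differences passed with TMM. The log2 fold change was 1.87 ± 0.80 for root against leaf (adjusted p = 0.0822), 0.50 ± 0.78 for flower against leaf (adjusted p = 0.615) and -1.36 ± 0.78 for flower against root (adjusted p = 0.178). Root against leaf passed under the other 4 of 5 scalings, and also without root13 (log2 3.36) and without leaf41 (log2 2.67). Flower against leaf passed under 1 scaling, the authors' divisor, at 2.03. With 1 library left out it passed in no case, and its log2 value was 1.44, 1.58 and 1.45 without root13, root23 and root33, 1.19 without leaf23 and 1.15 without leaf41. Flower against root passed under 0 of 5 scalings.

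The 22-base miR390a_5p was rare. It had 24, 31 and 32 counts in flower1, flower2 and flower45, 3, 2 and 4 counts in root13, root23 and root33, and 0 counts in the 3 leaf libraries. The limit that a count of 0 allows, 3 counts, equalled 7.21 CPM in leaf1, 4.80 in leaf23 and 3.52 in leaf41, against 16.3 ± 0.88 CPM in flower and 2.78 ± 0.97 in root (SD, n = 3). In flower it was at least 3.14-fold higher than in leaf, with each leaf library set to this limit. The call (adjusted p = 0.000617) comes from the fit with leaf at 0 counts, and the bound itself was not tested. Flower against root gave a fitted 5.70-fold (log2 2.51 ± 0.64, adjusted p = 0.00946), and the pooled counts of 87 and 9 gave a ratio of 5.92 with an exact 95% interval of 2.98 to 13.4 for counting error only. That call was lost without root13 (adjusted p = 0.0813) and without root23 (adjusted p = 0.0730), and the log2 value was 3.19 without root33. Root against leaf was also called (adjusted p = 0.0181), but every root library lay below the limit of 0 counts in every leaf library. With leaf set to that limit the log2 value was -0.90, so neither a fold nor a direction is given. The root against leaf call was lost without root33 (adjusted p = 0.0552) and without leaf23 (adjusted p = 0.0522). The sequence met the low-count filter only through the flower libraries, so none of its calls adds to those of miR390b_5p.

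Ratios within a library need no scaling between libraries. In flower, miR390a_5p made up 0.0305%, 0.0387% and 0.0389% of both 5p sequences in flower1, flower2 and flower45. In root it made up 0.232%, 0.0552% and 0.0805% in root13, root23 and root33, from only 3, 2 and 4 reads. The 95% Wilson intervals ran from 0.0791% to 0.681% in root13, from 0.0151% to 0.201% in root23 and from 0.0313% to 0.207% in root33, and those of root23 and root33 hold flower values. In leaf the 0 counts allow shares of up to 2.42%, 2.13% and 1.09% in leaf1, leaf23 and leaf41. A share as low as that in flower or root was therefore not detectable in leaf at this depth. The flower shares lay below the root shares in all libraries, at 0.0360% ± 0.00476 against 0.123% ± 0.0958 (SD, n = 3, two-sided exact permutation p = 0.1, adjusted 0.15 over 6 tests). The difference of flower from root was -0.0867 percentage points, and -0.0318 without root13, where the root mean was 0.0678%. With 3 libraries against 3, 0.1 is the smallest p that the exact test allows.

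The number of miR390b_5p reads per miR390b_3p read was 5.96 in root13, 5.95 in root23 and 4.42 in root33. It was 1.49 in leaf1, 0.94 in leaf23 and 2.53 in leaf41. In flower it was 4.07 in flower1, 1.90 in flower2 and 8.45 in flower45. The 5p strand was thus the more abundant in 8 of 9 libraries, and in leaf23 the 3p strand had slightly more reads. All root libraries were above all leaf libraries, while flower overlapped both. All of miR390b_5p is contained in miR390a_5p, so its reads cannot be assigned to a single hairpin. The ratio also leaves out the miR390a_3p reads, so it may not be the arm ratio of a single hairpin.

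On the log2 scale, root exceeded leaf in this ratio by 1.82 (exact permutation p = 0.1, adjusted 0.15 over 6 tests), and flower exceeded leaf by 1.40 (exact p = 0.2, adjusted 0.24). Flower differed from root by -0.42 (exact p = 0.6, adjusted 0.60), and this sign turned to 0.12 without flower2. In a background added after the miR390 values were seen, the 5p to 3p ratio did not overlap between root and leaf in 46.4% of the 28 other hairpins with both arms tested. For flower and leaf this share was 21.4%, and for flower and root 60.7%. Of the 13 hairpins that separated root from leaf, 5 had the higher ratio in root, the direction of the ratio of miR390b_5p to miR390b_3p.

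The make-up of the 3p reads differed more. miR390a_3p made up 0.397%, 0.183% and 0.348% of both 3p sequences in flower1, flower2 and flower45. In root it made up 25.8%, 16.8% and 9.28% in root13, root23 and root33, and in leaf 10.8%, 14.8% and 8.40% in leaf1, leaf23 and leaf41. The leaf values rest on few reads, with Wilson intervals from 5.95% to 18.7% in leaf1, from 10.3% to 20.8% in leaf23 and from 4.63% to 14.8% in leaf41. All of these intervals lie above the flower values.

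The means were 0.309% ± 0.112 (SD, n = 3) in flower, 17.3% ± 8.26 in root and 11.3% ± 3.22 in leaf. Flower was lower than leaf by 11.0 percentage points and lower than root by 17.0 (exact permutation p = 0.1 for each, adjusted 0.15 over 3 tests). Root was 5.98 percentage points above leaf (exact p = 0.3, adjusted 0.30), with overlap. These 3 tests were added after the counts had been seen. The miR390a_3p level itself was not called different between any of the organs with TMM, whereas that of miR390b_3p rose in flower.

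**Figure D3:**
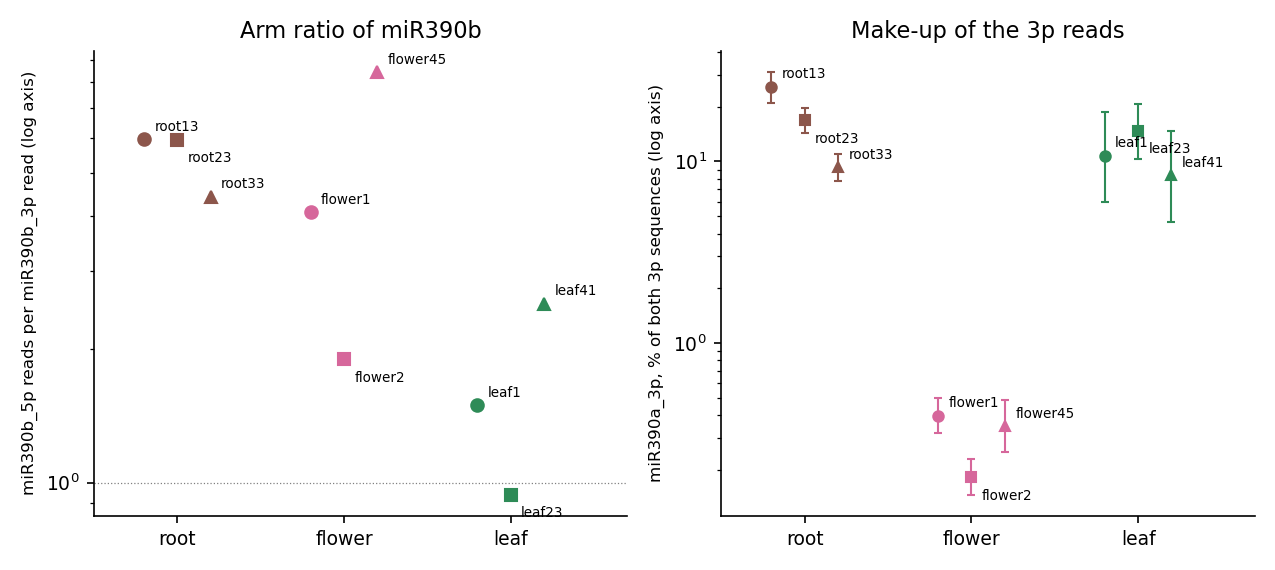
Ratios within libraries, on log axes. The left panel gives miR390b_5p reads per miR390b_3p read, with the dotted line at 1, and the right panel gives miR390a_3p as a percent of both 3p sequences. Each point is a library, and bars on the right are 95% Wilson intervals. The flower libraries spread from 1.90 to 8.45 on the left, and on the right they lie from 0.183% to 0.397%, below root and leaf.

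Among the miR390 sequences, log2 CPM over the 9 libraries had a Pearson r with miR390b_5p of 0.95 for miR390b_3p, 0.98 for miR390a_5p and 0.15 for miR390a_3p. These r describe 9 libraries that fall into 3 organs, and they carry no test. In leaf, at 0 counts, and in root, at 2 to 4, the log2 CPM of miR390a_5p is set largely by the prior count of 2. Its r therefore shows little beyond flower against the floor. Outside miR390, 121 distinct sequences with a mean of at least 10 CPM were compared, and their median r with miR390b_5p was -0.26. The 5 nearest were miR156h_5p (r = 0.88), miR167g_3p (r = 0.88), miR166h_3p with the same-sequence rows MIR166o_3p and MIR845h-3p (r = 0.86), miR396d_3p (r = 0.86) and miR171h_3p (r = 0.85). Their levels differed widely, from a flower mean of 124 ± 107 CPM for miR396d_3p to 50124 ± 23983 CPM for miR171h_3p (SD, n = 3). In 3 of the 121, all flower libraries were above all root libraries and all root above all leaf libraries, as for miR390b_5p. They were miR156h_5p, miR166h_3p and miR396d_3p, in TMM-scaled CPM. Unlike miR390b_5p, none of these was called for root against leaf by edgeR (adjusted p = 0.350, 0.0936 and 0.167 in this order). For flower against root, miR166h_3p (adjusted p = 0.184) and miR396d_3p (adjusted p = 0.0897) were not called, and miR156h_5p was (adjusted p = 0.0376).

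**Figure D4:**
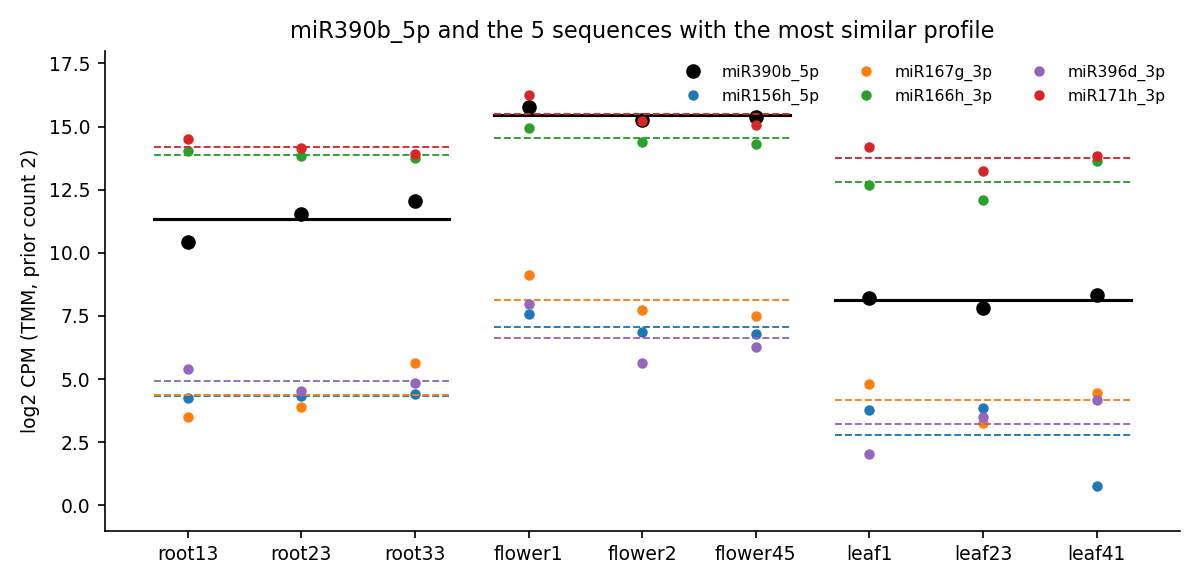
Log2 CPM of miR390b_5p and of the 5 sequences outside miR390 with the highest Pearson r to it, by library, with lines at organ means. All have their highest mean in flower, and the step between root and leaf is larger for miR390b_5p than for miR167g_3p.

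Other microRNAs are known from Arabidopsis to act on the auxin pathway, among them miR160 and miR167 on other auxin response factors, miR393 on auxin receptors and miR164 on NAC factors, among them one of auxin-dependent lateral root growth. Of their 15 distinct sequences tested, 1 was higher and 5 were lower in root than in leaf, 2 were higher and 3 lower in flower than in leaf, and 2 were higher and 3 lower in flower than in root. Over all rows, the shares called higher and lower were 9.03% and 23.2%, 12.9% and 31%, and 16.8% and 27.7% in these comparisons. Here and in the lists below, list counts and medians are over distinct sequences. The shares and medians over all rows count rows of the same sequence more than once. The balance depended on the scaling, since root against leaf gave 3 higher and 3 lower with each sequence once, and flower against root gave 6 higher and 1 lower with the divisor. The median log2 fold changes were -1.67, -0.70 and 1.01, beside -0.34, -1.16 and -0.07 over all rows. Of the 15 sequences, 9 were miR167, as were most of those called. Both hairpin arms are included, here and in the lists below, and which arm is the guide was not determined. The level of miR167e_5p was 94733 ± 48926 CPM in leaf, 36177 ± 17348 in flower and 1138 ± 559 in root (SD, n = 3), so leaf, the lowest organ for miR390b_5p, was the highest here. It was 83.2-fold lower in root than in leaf (adjusted p = 2.28e-05) and 31.8-fold higher in flower than in root (adjusted p = 5.29e-05). miR167b_5p, at 65482 ± 23915 CPM in leaf, was 19.98-fold lower in flower (adjusted p = 1.49e-05) and 8.17-fold lower in root (adjusted p = 0.000225).

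Some single miR167 sequences moved the other way. MIR167p_3p was higher in root, at 283 ± 30.4 CPM, than in leaf, at 4.64 ± 2.23 (adjusted p = 0.00452), and higher than in flower, at 2.44 ± 3.41 (adjusted p = 0.00144). MIR167p_3p met the low-count filter through the root libraries alone. miR167g_3p was higher in flower than in leaf (17.4-fold, adjusted p = 0.00759) and than in root (13.2-fold, adjusted p = 0.00946). miR167h_5p, with the same-sequence row miR167c_5p, was 3.17-fold higher in flower than in leaf (adjusted p = 0.0242). Unlike these, the arm sequence miR167e_3p was lower in root (adjusted p = 0.00158) and in flower (adjusted p = 0.00550) than in leaf. MIR160k_3p was 4.05-fold lower in flower than in root (adjusted p = 0.0486), under 2 of 5 scalings only. The miR393 sequences were not called in any comparison.

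Other known triggers of secondary small RNAs in plants, miR828, miR393 (also in the auxin list), miR482, miR7122 and miR4376, had 10 distinct sequences tested. Called higher than in leaf were 0 of 10 in flower and 0 of 10 in root, beside 12.9% and 9.03% of all rows, and no difference from the rest of the table was tested. The counts called lower are likewise to be read beside 23.2% of all rows for root against leaf, 31% for flower against leaf and 27.7% for flower against root. Lower in root than in leaf were 2 of 10, miR828a_5p (3.69 ± 0.53 against 96.3 ± 76.1 CPM, adjusted p = 0.00204) and miR482b_5p (adjusted p = 0.0218, under 2 of 5 scalings only). Lower in flower than in leaf were 3, miR828a_5p (2.51 ± 0.98 CPM, adjusted p = 0.000966), miR4376_5p (0.408 ± 0.365 against 15.7 ± 14.1 CPM, adjusted p = 0.00364) and MIR7122a_5p (adjusted p = 0.00550, under 4 of 5 scalings). The last 2, miR4376_5p and MIR7122a_5p, were also lower in flower than in root (adjusted p = 0.00336 and 0.00886). The sequence miR828a_5p met the low-count filter through the leaf libraries alone, and miR4376_5p did not meet it through flower. The medians were -1.95 for root against leaf, -1.55 for flower against leaf and 0.60 for flower against root.

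The microRNAs of the silencing machinery, miR162 on DCL1, miR168 on AGO1 and miR403 on AGO2 in Arabidopsis, had 9 distinct sequences tested. Lower in root than in leaf were 5 of 9 distinct sequences, or 6 of 10 rows, beside 23.2% of all rows. The count of distinct sequences was 5 with RLE size factors, 3 with library totals, 2 with the divisor and 3 with each sequence once. Among the 5 were miR168a_3p (8.57-fold, adjusted p = 0.00520), MIR168g_3p (5.90-fold, adjusted p = 0.00136), MIR403b_3p (adjusted p = 0.0181, under 3 of 5 scalings) and miR403_3p (adjusted p = 0.0315, under 2 of 5 scalings). The remaining one was MIR168f_5p with the same-sequence row miR168a_5p (log2 -1.81, adjusted p = 0.00341). The 5p sequences miR168b_5p (log2 0.38, adjusted p = 0.652) and MIR168d_5p (log2 -2.05, adjusted p = 0.0932) were not called. In flower against leaf, 3 of 9 were lower, beside 31% of all rows, miR168a_3p, MIR168g_3p and MIR168f_5p with the same-sequence row miR168a_5p, under 3, 2 and 1 of the 5 scalings. The sequence listed both as miR403a_3p and miR396h_3p was higher in flower than in leaf (30.5 ± 21.2 against 0.925 ± 0.829 CPM, adjusted p = 0.00429). It had 0 counts in the root libraries, and flower was at least 11.0-fold above the limit this allows. The call of flower against root (adjusted p = 0.000521) comes from the fit with root at 0 counts, and that bound was not tested. This sequence met the low-count filter through the flower libraries alone, the organ in which it was called higher. The medians were -2.05 for root against leaf (-1.97 with the sequence at 0 in root set to its bound), -1.46 for flower against leaf and 0.63 for flower against root.

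**Figure D5:**
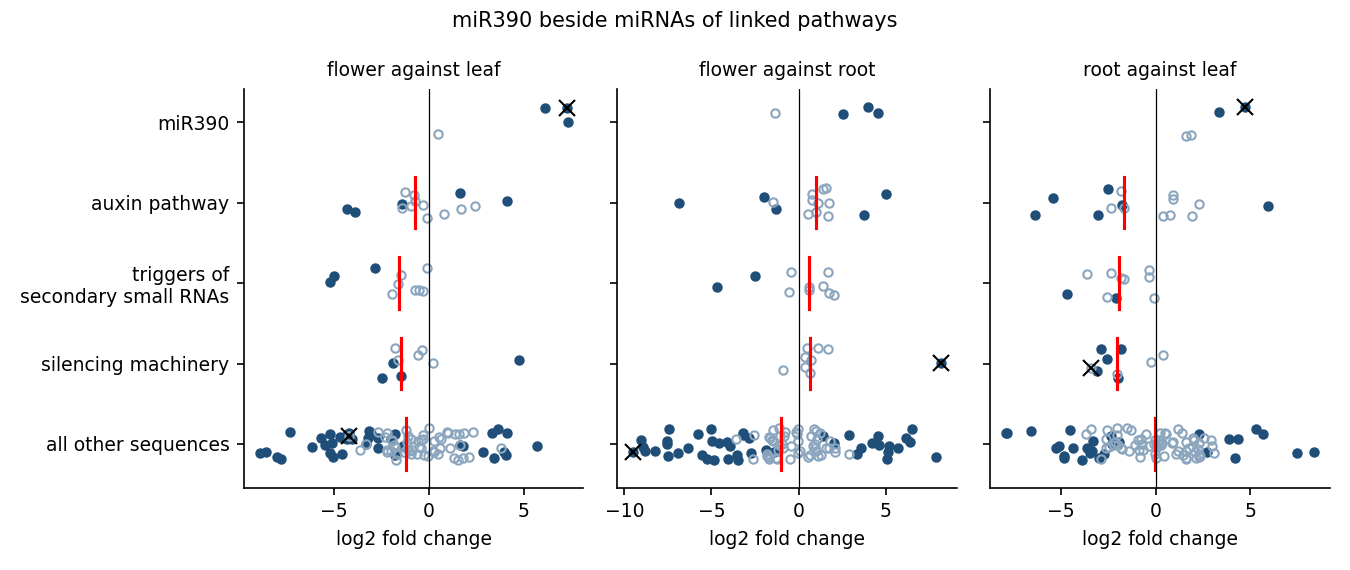
Log2 fold change of each tested sequence in 3 lists of other microRNAs and in the rest of the table, with miR390 shown apart, for the 3 comparisons. Filled points passed an adjusted p of 0.05 and red lines are medians over distinct sequences. Crosses mark fitted values with 1 organ at 0 counts, which are no bounds. miR390b_5p, at 7.34 in flower against leaf, lies above every point of the 3 lists there. This does not hold in flower against root, where it is at 3.99 and miR167e_5p at 4.99. Nor does it hold in root against leaf, where it is at 3.36 and MIR167p_3p at 5.95.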

How the data were processed

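Per the labels' protocols, small RNA libraries were made from total RNA of root, flower and leaf. The deposited table gives, per the file headers, a mature sequence and whole-number counts per library that the authors did not normalise, for 371 named rows. Beside them stands a normalised score called RPTM, which the authors rounded and the header does not define. It equals the count divided by 1 constant per library (2.11 to 2.25) and served as an alternative scaling only. For the aligner, the counter and the build, the sources used here give no name. Rows naming no miRNA numbered 1, with 0 counts, and 0 columns of libraries were left unused.

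The test on counts was that of edgeR 4.0.16, run under R 4.3.3 (glmQLFit and glmQLFTest, TMM, filterByExpr by organ, organ as the only factor, all 9 libraries, Benjamini-Hochberg at 0.05). The filter kept 155 rows, among them all 5 miR390 rows. The fit was run on simulated data with no low-count filter, where only flower changed and rises and falls were equally likely. That check does not cover the uneven split of calls or their dependence on the scaling. Each SE was taken from the fold change on the log2 scale and the F statistic. Ratios within libraries, with 0.5 counts added to both arms for the log2 ratio, were tested by two-sided exact permutation in Python 3.11.15 with SciPy 1.17.1. Duplexes were predicted with RNAduplex 2.7.2. Intervals and limits from 0 counts cover counting error only. Alternatives were DESeq2 1.42.0, 4 other scalings, other filters, the 6 libraries of a comparison alone and each library left out.

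The members and the lists were chosen with earlier results of these data known. All miR390 rows were named. From each list, up to 4 called sequences without overlap per comparison were named, largest change first, and the 5 sequences most like miR390b_5p by Pearson r of log2 CPM (prior count 2).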

Additional observations from a re-analysis of the deposited data

How the results depend on the processing

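The rises of miR390b_5p in all 3 comparisons, and those of miR390b_3p in flower, kept their direction and their call under all 17 alternatives. For root against leaf, miR390b_3p passed the threshold with DESeq2 (1.88), RLE size factors (1.88), library totals (2.34), the authors' divisor (2.49), each sequence once (2.59) and no low-count filter (1.67), and ran from 1.60 to 3.40 with 1 library left out. miR390a_3p passed there with DESeq2 (2.15), RLE size factors (2.13), library totals (2.63), the divisor (2.72) and each sequence once (2.75), and ran from 1.83 to 3.36. For flower against leaf, miR390a_3p passed with the divisor (2.03), and ran from 0.43 to 1.58 with 1 library left out. The call of miR390a_5p in root against leaf was lost without the filter (fitted log2 4.73, adjusted p = 0.0609), and its fitted log2 ran from 4.44 to 5.24 with 1 library left out; for flower against root it ran from 2.24 to 3.19. Rows called in root against leaf numbered 50, but 85 with DESeq2 and 29 to 86 with 1 library left out, the extremes being without root23 and without leaf41. The log2 ratio of the arms in flower against root ran from -0.95 to 0.12. The cause was not tested for any of these. The other scalings moved the counts of the 3 lists of other microRNAs, most for sequences higher in flower than in root, from 2 to 6 in the auxin list and from 1 to 5 in the silencing list with the divisor. Depth limits the leaf values, where miR390a_5p had 0 counts. No paired analysis was possible because no pair of organs shares as many as 2 library numbers.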
